A study of Drosophila melanogaster with 6 samples.

Results

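Osiris and Tweedle genes encode secreted or membrane proteins of insect epithelia that make cuticle, and they were followed here in the imaginal discs of the eye and the antenna in larvae of Drosophila melanogaster. The families were picked with earlier results of these data known, and their members are set by symbol, not by values: every gene whose FlyBase symbol is Osi followed by a number, or starts with Twdl. The annotation holds 25 Osiris and 26 Tweedle symbols, and 49 of these 51 genes had a row in the deposited tables of 17753 genes, 23 Osiris and 26 Tweedle. The other 2, Osi10a and Osi10b, were not analysed here. Tb, the Tweedle gene whose mutant form gives the Tubby body shape, falls outside the rule by its symbol. It was listed at 0 in every library, but it lies wholly inside beat-VII, so that an absence of its own reads cannot be read from the tables.

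RNA sequencing libraries were made from 3 samples of eye discs and 3 samples of antennal discs of third-instar larvae. The labels describe biological replicates. Both groups were of the genotype yw;+;+, mutant for the pigmentation genes yellow and white with no other allele named, and the labels name no treatment. Each library pooled 30 discs, separated manually, so that it averages over larvae and over all cell types of the disc. The 6 libraries held between 17583649 and 29093995 estimated counts, the smallest being eye disc replicate 2.

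Osiris proteins form an insect-specific family with a signal peptide and a conserved domain of unassigned function. Most of their genes lie side by side in the Triplo-lethal region of chromosome arm 3R, where flies do not survive with a missing or an extra copy. They are known from epithelia that secrete cuticle, such as the trachea, and Osi9, Osi15 and Osi19 are needed together for the maturation of tracheal tubes. Osi23, also called gore-tex, is needed in the pupal antenna for the pores of olfactory hairs, and Osi21, also called diehard4, acts in the degeneration of adult photoreceptors. Tweedle proteins are structural proteins of larval and pupal cuticle, and altered forms of TwdlD or Tb make the body short and wide. Imaginal discs of the third instar have not yet laid down the pupal or adult cuticle.

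Most members were at or near 0 in both discs. Of the 49, 14 had no count in any library (3 Osiris and 11 Tweedle genes), 18 had between 1 and 6 counts over all 6 libraries, and 6 had at least 10 counts but did not pass the count filter. The filter left 11 members for the test, 7 Osiris and 4 Tweedle genes. It asks for about 0.389 counts per 1000000 (CPM) in at least 3 libraries, and Osi4, Osi17 and TwdlU passed it through the eye disc libraries alone. Osi4 and Osi17 had no antennal disc library over that level, and TwdlU had 1. Shares among the tested members therefore do not describe the families as a whole. A gene with no count may still have had an expected count of up to 3 in a library. This floor corresponds to 0.1 to 0.192 CPM and covers counting error only. It does not bound TwdlX, TwdlY, TwdlZ and Twdlalpha, which lie wholly inside goe, whose counts may include their reads.

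**Figure D1:**
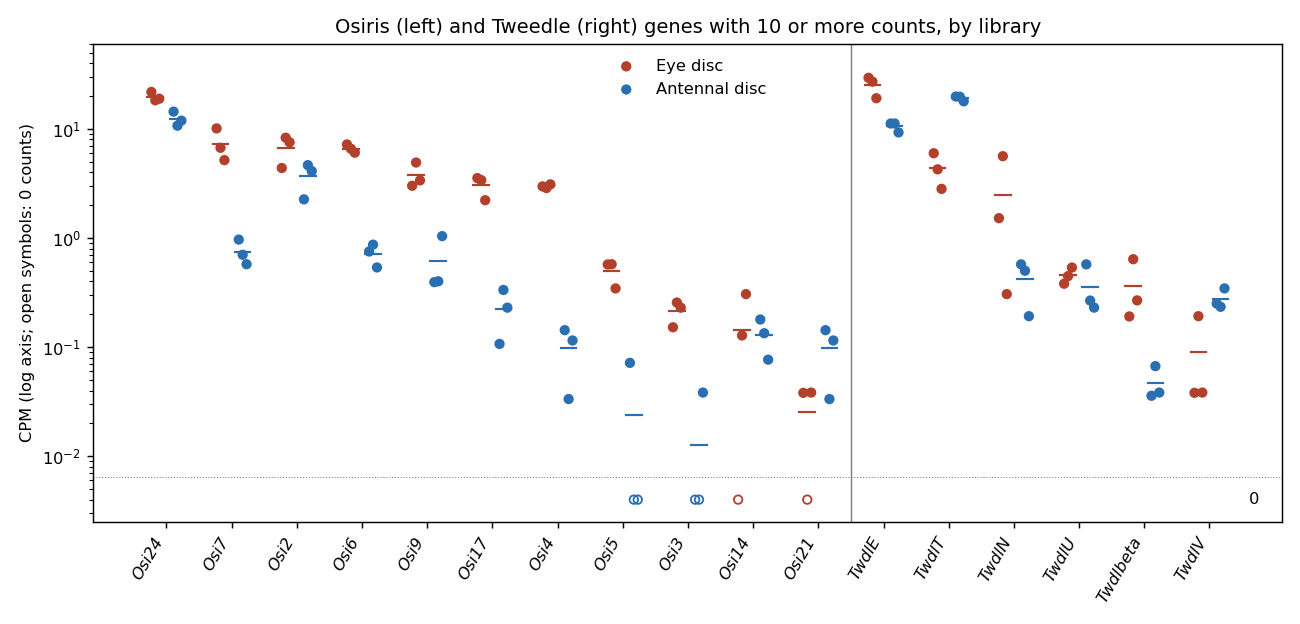
CPM on a log axis of the 17 members with at least 10 counts, for each of 3 eye disc libraries (red, left of each pair) and 3 antennal disc libraries (blue, right), with the mean as a bar and open symbols for 0 counts. Osi4, Osi6, Osi7, Osi9 and Osi17 stand apart in eye disc, and TwdlT in antennal disc, while Osi2, TwdlN and TwdlU overlap between the tissues.

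In the Osiris family 6 genes had a higher level in eye disc, Osi24, Osi4, Osi6, Osi7, Osi9 and Osi17 (edgeR's quasi-likelihood test with p adjusted by Benjamini-Hochberg, under 0.05). Of all 9901 genes tested, 14.6% were higher in eye disc by the same rule, and 11.7% were higher in antennal disc. The seventh tested gene, Osi2, also had a positive log2 fold change of eye disc over antennal disc but was not called. Of the 7 tested Osiris genes, 6 had all 3 eye disc libraries above all 3 antennal disc libraries, as had 23.4% of all tested genes. Of the same 7, 5 were called and at least 4-fold higher in eye disc, as were 6.16% of all tested genes. Osi4 and Osi17 are among these 5 and passed the filter through the eye disc alone, so these shares are descriptions. In these mixed tissues, fewer cells that express a gene and less of its RNA per cell cannot be told apart.

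Osi6 (FBgn0027527, 3R, 6234708 to 6237181 in dm6) had 189, 103 and 158 estimated counts in eye disc replicates 1, 2 and 3, against 21, 26 and 14 in antennal disc replicates 1, 2 and 3. The lowest eye disc library held several times the counts of the highest antennal disc library. Scaled to library size, Osi6 was at 6.61 ± 0.578 CPM in eye disc, against 0.719 ± 0.169 CPM in antennal disc (SD, n = 3 each). The log2 fold change was 3.19 ± 0.30 (SE), or 9.12-fold (adjusted p = 6.74e-04, edgeR).

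Osi7 (FBgn0037414, 3R, 6248994 to 6251683), the next Osiris gene along the chromosome and the only tested Osiris gene with a single exon, had 264, 105 and 135 counts in eye disc, against 27, 21 and 15 in antennal disc. The groups did not overlap, although eye disc replicate 1 stood above the other 2 eye disc libraries. Its level was 7.31 ± 2.50 CPM in eye disc, against 0.748 ± 0.200 CPM in antennal disc, a log2 fold change of 3.28 ± 0.38 (adjusted p = 0.00167, edgeR).

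Osi4 (FBgn0037412, 3R, 6218318 to 6221781), which lies on the minus strand while most of its neighbours lie on the plus strand, had 78, 45 and 81 counts in eye disc, against 4, 1 and 3 in antennal disc. It had the largest log2 fold change of the 11 tested members, 4.88 ± 0.52, or 29.5-fold (adjusted p = 0.00115, edgeR). Its eye disc libraries were close to each other, at 2.97, 2.87 and 3.10 CPM, against 0.143, 0.0334 and 0.115 CPM in antennal disc. The antennal disc values lie around or under the floor of 3 counts, so the size of the fold rests on few reads.

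Osi17 (FBgn0037427, 3R, 6311772 to 6327308), the longest Osiris gene with a span of 15537 bases, had 93, 53 and 58 counts in eye disc, against 3, 10 and 6 in antennal disc. Here too every eye disc library lay above every antennal disc library. The level was 3.05 ± 0.723 CPM in eye disc, against 0.224 ± 0.114 CPM in antennal disc, with a log2 fold change of 3.73 ± 0.51 (adjusted p = 0.00313, edgeR).

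Osi9 (FBgn0037416, 3R, 6260211 to 6262105), a gene of tracheal maturation, had 79, 77 and 88 counts in eye disc, against 11, 12 and 27 in antennal disc. Antennal disc replicate 3 held more than its other 2 replicates but stayed under all eye disc libraries. The log2 fold change was 2.62 ± 0.51 (3.77 ± 1.01 CPM in eye disc, against 0.610 ± 0.368 CPM in antennal disc, adjusted p = 0.0123, edgeR). Without antennal disc replicate 2 the call was lost, at a log2 fold change of 2.38 (adjusted p = 0.0558), and without antennal disc replicate 3 it was 3.22. Its partners in the trachea, Osi15 and Osi19, had 5 and 4 counts in eye disc in all and 0 in antennal disc.

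Osi24 (FBgn0037409, 3R, 6198811 to 6207678) had the highest CPM of the Osiris genes in both tissues, also per kilobase of exon. In the authors' TPM, which divide by the whole gene span, Osi6 was above it in every eye disc library. Osi24 had 572, 286 and 494 estimated counts in eye disc, against 402, 321 and 310 in antennal disc. In CPM the libraries of the tissues did not overlap (18.3 to 21.8 in eye disc and 10.7 to 14.4 in antennal disc). The log2 fold change was small, 0.67 ± 0.14, or 1.59-fold (adjusted p = 0.0148, edgeR). Leaving out antennal disc replicate 2 ended the call (0.57, adjusted p = 0.0564), and so did leaving out antennal disc replicate 3 (0.64, adjusted p = 0.0675). Unlike the other Osiris genes, Osi24 had estimated counts that were not whole numbers, which shows that some of its reads were shared with other targets. No indexed gene overlaps its span, but an annotated BS transposable element of 152 bases lies inside it (3R, 6206342 to 6206493); the part of these reads in the difference was not tested.

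Osi2 (FBgn0037410, 3R, 6209373 to 6213493), the neighbour of Osi24, had 115, 130 and 197 counts in eye disc, against 63, 139 and 107 in antennal disc. In CPM the tissues overlapped, with 4.38, 8.30 and 7.54 in eye disc and 2.26, 4.65 and 4.10 in antennal disc. The log2 fold change was 0.88 ± 0.38 and was not called (adjusted p = 0.137, edgeR). With the replicate number as a block it was called, at 0.89 (adjusted p = 0.0337), in a fit that called 30.4% of all tested genes. In both tissues replicate 1 held the lowest level of Osi2.

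**Figure D2:**
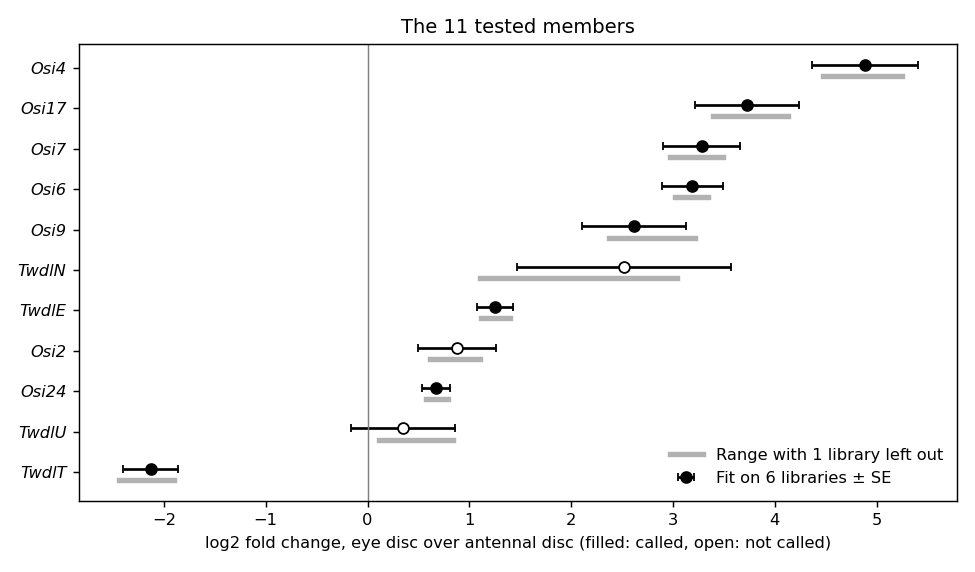
Log2 fold change of eye disc over antennal disc for the 11 tested members, with the fit on 6 libraries (circle, filled where called, ± SE) and the range over the 6 fits that each left out 1 library (grey bar). Osi4, Osi17, Osi7, Osi6 and Osi9 lie between 2.62 and 4.88, TwdlT lies at -2.13, and TwdlN has the widest range, 1.10 to 3.04.

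Some of the untested Osiris genes were also counted mostly in eye disc. Osi5 (FBgn0037413) had 15, 9 and 9 counts in eye disc, against 2, 0 and 0 in antennal disc. Pooled over libraries and set against depth, the eye disc level was 20.4 times the antennal disc level, with an exact 95% counting interval of 5.21 to 175. Osi3 (FBgn0037411) had 4, 4 and 6 counts in eye disc, against 0, 0 and 1 in antennal disc, a ratio of 17.3 (2.63 to 730). For both genes the tissues did not overlap, and their intervals cover counting error only.

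When the test was run without a count filter, Osi5 was the only one of the 24 members it added that was called, with higher values in eye disc (log2 fold change 4.10, adjusted p = 0.0351, edgeR). In that fit 9.87% of 13572 genes had the higher level in eye disc and 8.32% in antennal disc. Osi3 was at 3.65 there (adjusted p = 0.0612). Osi5 lies between Osi4 and Osi6, and Osi3 lies beside Osi4.

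The Osiris genes with a known role in the adult eye or antenna were near 0. Osi21 (FBgn0283678, 2L, 11284327 to 11285706), the gene of photoreceptor degeneration, had 1, 0 and 1 counts in eye disc, against 4, 1 and 3 in antennal disc, a ratio of 0.308 with an interval of 0.0319 to 1.55. Osi23 (FBgn0039771), the gene of olfactory pores, had a total of 1 count, in eye disc replicate 2, and 0 in every antennal disc library. Osi14 (FBgn0040279) had 0, 2 and 8 counts in eye disc, against 5, 4 and 2 in antennal disc, and its groups overlapped. Osi8, Osi11 and Osi22 had no count in any library, and Osi1, Osi12, Osi13, Osi16, Osi18 and Osi20 had 1 to 4 counts in all.

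The cluster on 3R was not uniform. It runs from Osi1 to Osi20 over 168 kb (3R, 6173549 to 6341424), and 20 of its 22 genes had a row in the tables. All 7 tested Osiris genes lie in it, and all but Osi17 lie in its first part, from Osi24 to Osi9. Between Osi9 and Osi17 the Osiris genes with a row are Osi11, Osi12, Osi13, Osi14, Osi15 and Osi16, with 0 to 21 counts each over 6 libraries.

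No gene of another family inside the cluster was called (edgeR). NPFR, the receptor of neuropeptide F, had 15, 2 and 37 counts in eye disc, against 12, 13 and 6 in antennal disc (log2 fold change 0.97, adjusted p = 0.407, edgeR). CG15597 had 1, 15 and 14 counts in eye disc, against 1, 15 and 4 in antennal disc (1.06, adjusted p = 0.541, edgeR). The other 4 with a row in the tables, CR31562, CG15594, CG46026 and CG31560, had no count.

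**Figure D3:**
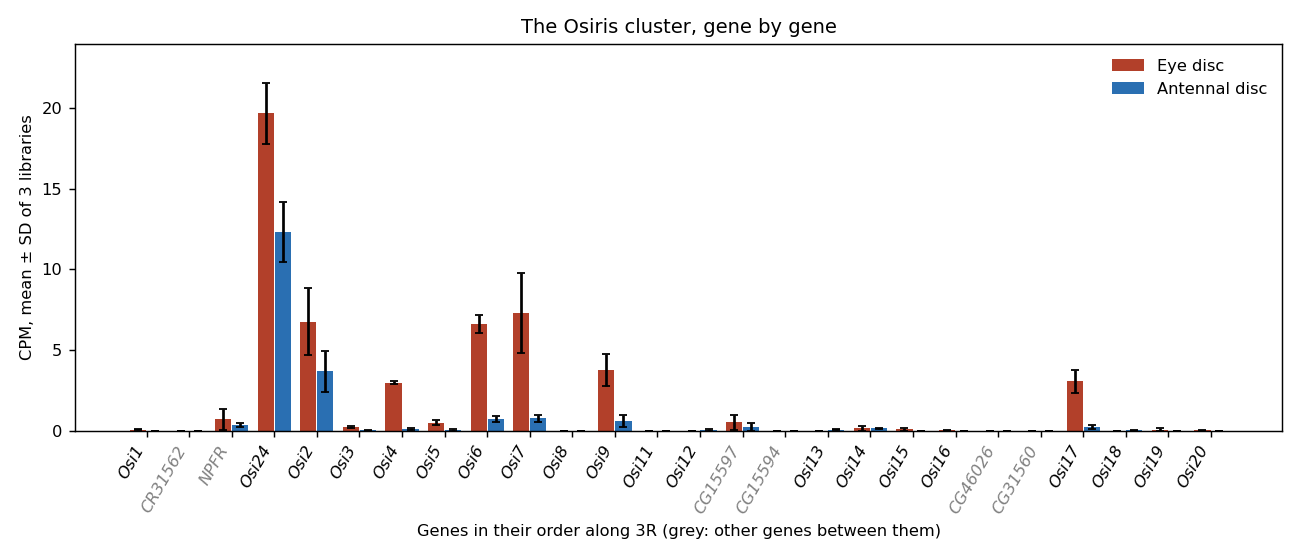
Mean CPM ± SD (n = 3) of each gene of the Osiris cluster, in its order along 3R, in eye disc (red, left bars) and antennal disc (blue, right bars). Osi24 is highest in both tissues, Osi4, Osi6, Osi7, Osi9 and Osi17 are mostly counted in eye disc, and the genes of other families (grey names) are near 0.

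Summed over the 23 Osiris genes, the level was 54.1, 52.1 and 47.5 CPM in eye disc replicates 1, 2 and 3, against 19.5, 18.0 and 18.8 CPM in antennal disc. The tissues did not overlap, and the means differed 2.73-fold (51.2 ± 3.39 CPM in eye disc, against 18.8 ± 0.745 CPM in antennal disc). Osi24 made up 38.4% of the sum in eye disc and 65.8% in antennal disc, while Osi6 and Osi7 together with Osi4, Osi9 and Osi17 ranged from 5.82% to 14.3% each in eye disc and from 0.518% to 3.99% each in antennal disc. Without Osi24 and Osi2, the rest of the cluster summed to 27.9, 25.5 and 21.0 CPM in eye disc, against 2.69, 2.57 and 2.72 CPM in antennal disc. These sums are descriptions, since the members they leave out were picked by their values.

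Of the 4 tested Tweedle genes, TwdlE was higher in eye disc, TwdlT was higher in antennal disc, and TwdlN and TwdlU were not called. With 14.6% of all tested genes higher in eye disc and 11.7% higher in antennal disc, 1 call each way among 4 genes does not set the family apart. Both called genes overlap another gene, and reads in an overlap can be shared out between the genes in either direction.

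TwdlT (FBgn0029170, 3R, 27049220 to 27051004) had 157, 67 and 74 estimated counts in eye disc, against 552, 591 and 466 in antennal disc. Every antennal disc library lay above every eye disc library, an arrangement found for 22.2% of all tested genes. The level was 4.36 ± 1.58 CPM in eye disc, against 19.1 ± 1.10 CPM in antennal disc, with a log2 fold change of -2.13 ± 0.27, or 4.38-fold lower in eye disc (adjusted p = 0.00235, edgeR). TwdlT lies wholly inside the span of RYa-R, the RYamide receptor gene on the same strand. RYa-R itself was at 0.385 ± 0.188 CPM in eye disc, against 0.466 ± 0.149 CPM in antennal disc (log2 fold change -0.30, adjusted p = 0.697, edgeR). Summed before the fit, the pair differed by -2.04 ± 0.25 (adjusted p = 0.00189, edgeR), so that the difference was nearly as large with every read of the overlap included.

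TwdlE (FBgn0031957, 2L, 7857957 to 7860839) had 771, 424 and 498 estimated counts in eye disc, against 314, 336 and 242 in antennal disc. The libraries did not overlap in CPM, with 19.1 to 29.4 in eye disc and 9.28 to 11.2 in antennal disc. The log2 fold change was 1.25 ± 0.18, or 2.38-fold (adjusted p = 0.00390, edgeR). Of its span, 75.1% is covered by lectin-28C, a C-type lectin gene on the opposite strand with more counts of its own. lectin-28C was at 112 ± 19.3 CPM in eye disc, against 52.6 ± 5.59 CPM in antennal disc, a log2 fold change of 1.09 (adjusted p = 0.00293, edgeR). The strand setting of the authors' counting is not given in the sources used here, so reads of TwdlE and of lectin-28C cannot be told apart where they overlap.

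TwdlN (FBgn0039441, 3R, 26631869 to 26632956) had 40, 88 and 8 counts in eye disc, against 16, 15 and 5 in antennal disc. In CPM its eye disc libraries spread over 1.52, 5.62 and 0.306, against 0.573, 0.501 and 0.192 in antennal disc, and the groups overlapped. The log2 fold change of 2.52 ± 1.05 was not called (adjusted p = 0.129, edgeR), and it was 1.10 without eye disc replicate 2 (adjusted p = 0.394). TwdlN was called in 2 alternatives, by DESeq2, which called 34.0% of all tested genes (2.54, adjusted p = 0.0464), and without eye disc replicate 3 (3.04, adjusted p = 0.0356). Eye disc replicate 2, which held the most TwdlN, also held 84958 CPM of the salivary gland glue genes Sgs3, Sgs4, Sgs5, Sgs7 and Sgs8, against 507 and 1318 CPM in the other 2 eye disc libraries and 413 to 1110 CPM in antennal disc; the part of such tissue in TwdlN was not tested.

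TwdlU (FBgn0037223, 3R, 4243606 to 4245511) had 10, 7 and 14 counts in eye disc, against 16, 8 and 6 in antennal disc, with overlapping groups (log2 fold change 0.35 ± 0.51, adjusted p = 0.652, edgeR). Its neighbour TwdlV (FBgn0037227) was not tested. It had 1, 3 and 1 counts in eye disc, against 7, 7 and 9 in antennal disc, without overlap, and a ratio of 0.268 (0.0796 to 0.721). Twdlbeta (FBgn0033658, 2R, 11862537 to 11863252) had 5, 10 and 7 counts in eye disc, against 1, 2 and 1 in antennal disc, also without overlap, and a ratio of 6.79 (2.30 to 27.1). Without a count filter neither was called (adjusted p = 0.208 for TwdlV and 0.0574 for Twdlbeta, edgeR).

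The largest Tweedle cluster was nearly silent. By the symbol rule it holds 13 genes from TwdlM to TwdlQ in 74.5 kb (3R, 26619118 to 26693590). Of these, 7 had no count, 5 had 1 to 3 counts in all, and TwdlN alone was tested. Tb also lies in this stretch but falls outside the rule. TwdlD, the gene of the body shape mutants, had 1 count, in antennal disc replicate 2. beat-VII, a gene of the Beaten path cell adhesion family inside the same stretch, had 113, 84 and 244 counts in eye disc, against 20, 16 and 22 in antennal disc (log2 fold change 3.18 ± 0.41, adjusted p = 0.00262, edgeR). On the X chromosome TwdlX, TwdlY, TwdlZ and Twdlalpha were listed at 0 in every library. They lie wholly inside goe on the opposite strand, which held 214 ± 20.7 CPM in eye disc, against 213 ± 16.0 CPM in antennal disc, so that an absence of their own reads cannot be read from the tables. TwdlC had 3, 2 and 0 counts and TwdlW 4, 0 and 2 counts in eye disc, and both had 0 in antennal disc.

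Summed over the 26 Tweedle genes, the tissues overlapped, with 37.8, 38.6 and 23.3 CPM in eye disc, against 32.5, 32.2 and 27.9 CPM in antennal disc. TwdlE made up 75.8% of the sum in eye disc and 34.3% in antennal disc, and TwdlT 13.1% in eye disc and 61.9% in antennal disc. A different gene thus led the sum in each tissue. The counts of TwdlE may include reads of lectin-28C, so its own part of the sums is uncertain.

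**Figure D4:**
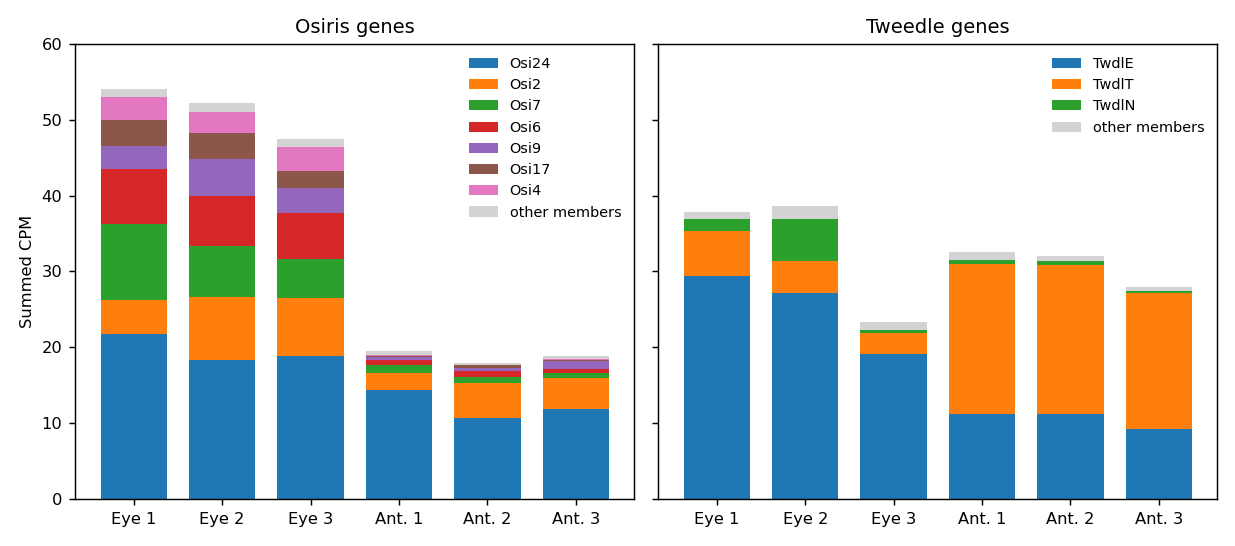
Summed CPM of the Osiris genes (left panel) and the Tweedle genes (right panel) in each library, eye disc libraries first, with the leading genes stacked by colour. The Osiris sums are 47.5 to 54.1 CPM in eye disc, against 18.0 to 19.5 CPM in antennal disc. Among Tweedle genes TwdlE, whose counts may include reads of lectin-28C, leads in eye disc and TwdlT in antennal disc.

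To compare levels between genes, CPM was divided by the exonic length in kilobases. In eye disc TwdlE (18.7 ± 4.02 CPM per kb) and Osi24 (7.48 ± 0.714) came first, each above the next gene in every library. Osi2, Osi6, Osi9, Osi7, TwdlT, TwdlN and Osi4 followed between 3.88 and 1.96 CPM per kb, and each overlapped its neighbour in this order. In antennal disc TwdlT (11.9 ± 0.682), TwdlE (7.86 ± 0.838), Osi24 (4.69 ± 0.709) and Osi2 (2.11 ± 0.720) came first, none overlapping the next. All other members were under 0.5 CPM per kb there, led by Osi9 at 0.449 ± 0.271. The order depends on the length used. In the TPM of the authors' tables, which divide by the whole gene span, Osi24 was at 5.79, 2.99 and 5.21 in eye disc, under Osi6 in every eye disc library (7.26, 4.08 and 6.31). In antennal disc Osi24 was at 3.88, 2.82 and 3.14 TPM. TwdlE was at 14.2 to 25.1 TPM in eye disc and 7.89 to 9.71 TPM in antennal disc. On either scale its level may include reads of lectin-28C, which overlaps it.

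Markers checked the labels and the other tissues a library could hold. All 9 eye markers, such as eya and gl, were higher in eye disc and all 6 antennal markers, such as Dll and ss, in antennal disc. Eye markers summed to 1740 to 1994 CPM in eye disc, against still to 221 to 260 CPM in antennal disc. The antennal disc level was between 4.50% (gl) and 22.1% (elav) of the eye disc level for 8 of the 9 eye markers and 77.5% for ato. It was 10.9% for Osi6, 10.2% for Osi7, 16.2% for Osi9, 7.34% for Osi17 and 3.26% for Osi4. Osi24 and Osi2 were at 62.8% and 54.4%, between elav and ato. Other genes cover 98.6% of the span of elav and 83.8% of that of ro, so reads of these 2 markers may be shared. In the other direction the eye disc level was 22.8% of the antennal disc level for TwdlT. Among the 6 antennal markers it was 6.01% for Dll, 9.54% for disco, 11.2% for btd, 13.0% for ss, 38.9% for hth and 48.2% for ct, so TwdlT lies within their range. Whether reads in the other tissue came from carried-over disc was not tested.

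Tracheal markers bear on the Osiris genes, which are known from that tissue. None of the 6 was called: they summed to 1483, 1669 and 1484 CPM in eye disc, against 1727, 1454 and 1466 CPM in antennal disc, and none was at 0. Most of that sum came from verm, serp and Gasp, genes that other epithelia also express. The tracheal transcription factor trh was at 20.2 ± 10.4 CPM in eye disc, against 8.62 ± 1.85 CPM in antennal disc (log2 fold change 1.22, adjusted p = 0.0857, edgeR), and the FGF receptor gene btl at 11.6 ± 3.40 CPM in eye disc, against 7.00 ± 2.90 CPM in antennal disc (0.73, adjusted p = 0.187, edgeR). Their part in the Osiris difference was not tested. Glial markers summed to 79.1 to 98.5 CPM in eye disc, against 9.48 to 13.8 CPM in antennal disc, with all 3 called, hemocyte markers to 446 to 617 CPM in eye disc, against 231 to 328 CPM in antennal disc, with 3 of 4 called, and muscle markers to 124 to 460 CPM in eye disc, against 504 to 681 CPM in antennal disc, with Mhc alone called. Fat body markers summed to 26230 CPM in eye disc replicate 2, against 5513 and 8739 CPM in the other 2 eye disc libraries and 3500 to 5501 CPM in antennal disc. No marker of these lists was at 0 in all libraries. Other genes cover all of the span of the glial marker moody and of the glue gene Sgs4. They cover 84.6% of that of the fat body marker Lsp2, so reads of these markers may be shared. Without eye disc replicate 2, 6 Osiris genes were higher in eye disc, TwdlE was higher in eye disc and TwdlT in antennal disc.

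Other cuticle genes were set beside the families. Of 99 genes of the other cuticle protein families (Cpr, Ccp84, Lcp and related names), 10 were at 0 in every library and 47 were tested. Among those at 0, Cpr64Aa, Cpr64Ab and Cpr64Ac are wholly covered by other genes, so their own absence cannot be read from the tables. Of the 47 tested, 14 had the higher level in eye disc and 3 in antennal disc, while 30 were not called. By the same rule, eye disc had the higher level for 14.6% of all 9901 tested genes, and antennal disc for 11.7%. The median log2 fold change was 1.21, against 0.00 over all 9901 tested genes. The median rested on eye disc replicate 2, the library with the most fat body and glue gene counts: without it the median was 0.26, with 13 of 50 tested genes higher in eye disc. With another library left out the median was 0.91 to 1.71. The genes of the list higher in eye disc numbered 8 without antennal disc replicate 1 or 2 and 9 without eye disc replicate 3. Calls higher in eye disc over all genes also fell in these 3 fits, from 1449 to 1106, 919 and 1247. Cpr92A was at 0.684 ± 0.148 CPM in eye disc, against 18.9 ± 6.05 CPM in antennal disc (-4.80), Cpr65Ec differed by -3.85, Cpr47Ea by -3.22 and Cpr49Ag by 3.44 (edgeR, adjusted p = 2.45e-04, 0.00338, 0.0285 and 0.0132). The most abundant genes that were not called were Cpr49Ac (537 ± 300 CPM in eye disc, against 306 ± 88.8 CPM in antennal disc) and Lcp1 (443 ± 563 CPM in eye disc, against 109 ± 102 CPM in antennal disc). Lcp1 was at 52.3, 1088 and 189 CPM in eye disc replicates 1, 2 and 3, against 56.9, 227 and 44.1 CPM in antennal disc.

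Of 27 tested genes of chitin synthesis and chitin binding, 5 had the higher level in eye disc and 3 in antennal disc, while 19 were not called. Among all tested genes, 14.6% were called with eye disc above antennal disc and 11.7% the other way. A further 3 listed genes, obst-G, obst-I and obst-J, were at 0 throughout. Other genes cover 95.9% of the span of obst-I and all of that of obst-J, so an absence of their own reads cannot be read from the tables. The median of the list was 0.46, against 0.00 over all tested genes, and 0.16 without eye disc replicate 2. The genes of the list higher in antennal disc numbered 1 without any one of the antennal disc libraries and 2 without eye disc replicate 3. Calls in that direction over all genes also fell in these fits, from 1161 to 911, 596, 520 and 925. Without eye disc replicate 1, 9 genes of the list were higher in eye disc, while such calls over all genes went from 1449 to 1397. The chitin deacetylase gene Cda4 was at 83.8 ± 14.6 CPM in eye disc, against 189 ± 35.6 CPM in antennal disc (-1.17, adjusted p = 0.00659, edgeR). exp, a gene of tracheal chitin deposition (0.90), and the chitin-binding genes obst-B (0.70) and obst-A (0.57) were higher in eye disc (adjusted p = 0.0144, 0.0135 and 0.00387, edgeR). Cht10, a chitinase gene (1638 ± 209 CPM in eye disc, against 2227 ± 334 CPM in antennal disc), and verm were the most abundant that were not called.

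Of 14 tested genes of zona pellucida domain proteins, which build the matrix over the apical cell surface, 1 had the higher level in eye disc and 4 in antennal disc, while 9 were not called. Calls with eye disc above antennal disc made up 14.6% of all tested genes, and calls the other way 11.7%. The median of the list was -0.49, against 0.00 over all tested genes. Without antennal disc replicate 3, 1 gene of the list was higher in antennal disc. In that fit such calls over all genes fell from 1161 to 520. Without eye disc replicate 3 the median of the list was -0.31. dyl was the member higher in eye disc, at 8.09 ± 0.426 CPM, against 0.486 ± 0.151 CPM in antennal disc (log2 fold change 4.04 ± 0.32, adjusted p = 3.73e-04, edgeR). dpy (-1.01), pio (-0.76) and qsm (-0.72) were higher in antennal disc (adjusted p = 0.0166, 0.0151 and 0.00306, edgeR). neo (170 ± 54.1 CPM in eye disc, against 222 ± 45.0 CPM in antennal disc) and tyn (185 ± 35.2 CPM in eye disc, against 143 ± 18.3 CPM in antennal disc) were not called.

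Of 23 tested genes listed as regulators of cuticle and hair formation, 2 had the higher level in eye disc and 2 in antennal disc, while 19 were not called. Over all tested genes, 14.6% were called with eye disc above antennal disc and 11.7% the other way. The median of the list was 0.17, against 0.00 over all tested genes, and 0.02 to 0.24 with 1 library left out. Genes of the list higher in eye disc numbered 4 without eye disc replicate 1, where such calls over all genes went from 1449 to 1397. In each fit that left out another library, 1 gene of the list was higher in antennal disc. Such calls over all genes also fell in those fits, from 1161 to between 520 and 976. Vajk1, Vajk2, Vajk3 and Vajk4 in this list are in fact genes of a cuticle protein family, so its counts and median do not describe regulators alone. Vajk4 was at 24.4 ± 5.75 CPM in eye disc, against 1.14 ± 0.258 CPM in antennal disc (log2 fold change 4.42 ± 0.27, adjusted p = 1.28e-04, edgeR). Vajk1, Vajk2 and Vajk3, wholly covered by other genes, were not called. SoxN, a transcription factor of denticle formation, differed by 2.52 (adjusted p = 6.14e-04, edgeR). ovo, whose shavenbaby isoforms direct hairs and denticles and whose span other genes cover by 68.8% (-0.65, adjusted p = 0.00101, edgeR), and the repressor ttk (-0.31, adjusted p = 0.0446, edgeR) were higher in antennal disc. The actin-bundling gene sn (352 ± 67.9 CPM in eye disc, against 305 ± 66.0 CPM in antennal disc) and the epithelial factor grh (291 ± 4.95 CPM in eye disc, against 326 ± 17.9 CPM in antennal disc) were not called.

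**Figure D5:**
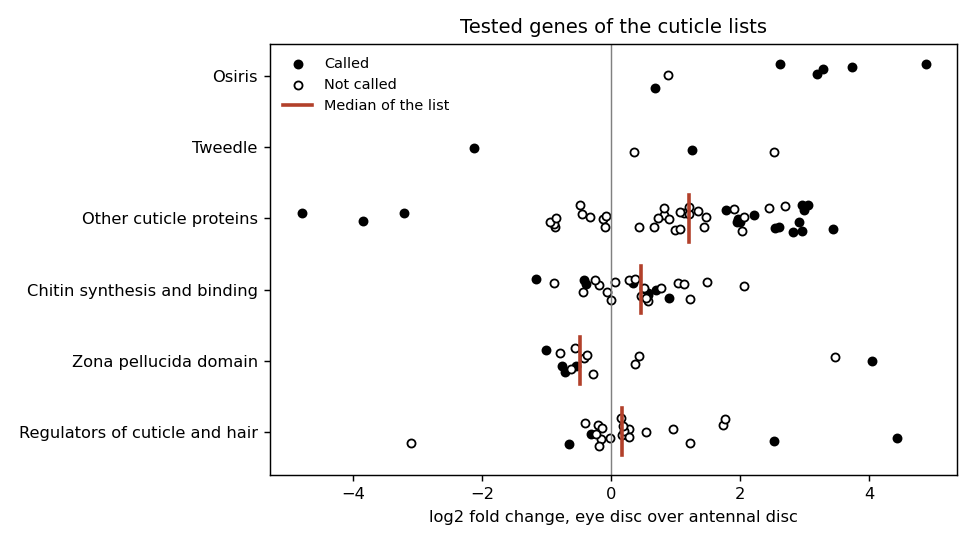
Log2 fold change of eye disc over antennal disc for the tested genes of each list (filled: called, open: not called), with the median of the 4 lists that are not members as a red bar. Osiris genes lie to the right of 0, Tweedle genes on both sides, and the median is 1.21 for other cuticle proteins (0.26 without eye disc replicate 2) and -0.49 for zona pellucida domain genes.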

How the data were processed

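Per the file headers, the deposited tables give an estimated count and a TPM value in kallisto's layout for 1 target per FlyBase gene; FastQC, kallisto, bedtools and dm6 are named in the submitters' processing notes. No version or strand setting is stated there. Symbols and spans came from an Ensembl annotation in dm6 coordinates, which matched 17622 of 17753 identifiers. The listed length equals the gene span, introns included, for all 38 members with more than 1 exon block. Reads were thus assigned to gene spans, which can overlap: 5 members lie wholly inside another gene, 2 overlap one in part and 42 are free. The deposited lists of genes within genomic regions repeat the TPM and were not used.

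Estimated counts were rounded, filtered with filterByExpr, scaled by TMM and tested by the robust quasi-likelihood method of edgeR 4.0.16 (R 4.3.3) without covariates, eye disc over antennal disc, with Benjamini-Hochberg adjustment over 9901 genes. CPM use the TMM-scaled libraries. The SE is the absolute log2 fold change over the square root of F, which is approximate. Counting intervals are exact Clopper-Pearson intervals (scipy 1.17.1) on pooled counts. On simulated counts for 9901 genes of this comparison the test recovered 55.6% of genes changed by a log2 of 1 and 78% of those changed by a log2 of 2, with 6.34% false among 142 calls. The simulation changed far fewer genes than the 26.4% called in these data and held no effect shared by replicate number. Its rates therefore need not hold for these data.

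Alternatives were RLE scaling, other count filters, DESeq2 1.42.0, the replicate number as a block, each library left out in turn, and, chosen after seeing the data, TwdlT and TwdlE summed with the gene they overlap, and the gene lists with each library left out. Eye and antennal samples that share a replicate number also shared deviations from the tissue mean (correlation across genes 0.415, 0.308 and 0.242). The main fit did not use this pairing, so its p-values are unpaired, and the replicate block is the alternative that uses it. The pairing rests on the data, as the labels do not say what equal numbers share. Replicate libraries differed by more than sampling noise. Named members are those tested or with at least 10 counts; in each other list, up to 4 called genes by size of change and up to 2 uncalled genes by level. The members and lists were chosen with earlier results of these data known.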

Additional observations from a re-analysis of the deposited data

How the results depend on the processing

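The calls of Osi4, Osi6, Osi7, Osi17, TwdlE and TwdlT held under every alternative run. For TwdlE the fit summed with lectin-28C cannot test the call. In eye disc lectin-28C held 112 of the 137 CPM of the pair, and it was called by itself. Osiris genes higher in eye disc numbered 6, and 4 to 7 with 1 library left out: Osi24 and Osi9 were lost without antennal disc replicate 2 and Osi24 without antennal disc replicate 3, while Osi5 joined without eye disc replicate 3 and without antennal disc replicate 1. Tweedle genes higher in eye disc numbered 1, and 2 under DESeq2, where TwdlN joined; with 1 library left out they numbered 1 to 2. The replicate block added Osi2 (log2 fold change 0.89, adjusted p = 0.0337) and changed no other member's call. Over all genes, 1449 were higher in eye disc (919 to 1462 with 1 library left out) and 1161 in antennal disc (520 to 1117), with the lowest counts without antennal disc replicates 2 and 3. The log2 ratio of the summed Tweedle CPM, 0.11, ranged from -0.02 without eye disc replicate 2 to 0.31. The causes were not tested. Depth limits the members near 0, and the floor was 0.1 to 0.192 CPM. For TwdlX, TwdlY, TwdlZ and Twdlalpha, wholly inside goe, that floor does not hold. Of the 49 members, 14 were at 0 and in no fit. A further 24 were tested only without the count filter or, for Osi5, also with 1 library left out. TwdlN was not tested under the filter of 1 CPM in 3 libraries, nor was TwdlU.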
